A study of Mus musculus with 19 samples.

Results

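The 10 genes described here encode RNA-binding proteins that select alternative exons in muscle cells: the muscleblind-like proteins Mbnl1, Mbnl2 and Mbnl3, the CELF proteins Celf1 and Celf2, the polypyrimidine tract-binding proteins Ptbp1 and Ptbp2, the Fox proteins Rbfox1 and Rbfox2, and Rbm24. They were taken by name as members of these families, not by a threshold on a measured value, and all 10 were found among the 35598 genes of the deposited tables and passed the filter on low counts. An alternative exon is an internal segment of a gene that the spliced RNA may keep or leave out, and proteins of these families bind short motifs in or beside such exons and push the choice one way or the other. MBNL and CELF proteins often act in opposite directions on the same exon, the position of a Fox protein relative to an exon is known to set whether it is kept, and PTBP1 is a broad repressor of tissue-type exons that is known to decline as several tissues mature. Several of these proteins also bind their own RNA, so their alternative exons are part of the same circuit.

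RNA was measured in 19 libraries of primary myoblasts, the precursor cells of skeletal muscle, grown out of mouse hind-limb muscle. The 6 groups were WT myoblasts in growth medium (24 h, 3 libraries), WT differentiated myotubes (48 h, 3 libraries), WT fused myotubes (72 h, 4 libraries), and the same stages carrying the Glud1KO label (3, 2 and 4 libraries), a label for loss of glutamate dehydrogenase 1, an enzyme of mitochondrial glutamate metabolism. The labels give no strain, age, sex or Cre driver, and they do not say whether biological replicates were separate animals or cultures, so p-values measure the spread between these libraries, which may be technical. The comparisons ask how the regulators change as myoblasts differentiate and fuse, and whether the genotype label alters that.

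Libraries held 16168131 to 30742634 estimated counts. Glud1 itself did not separate the labels: its CPM (counts relative to library size after TMM scaling between libraries) was 184 to 192 in WT and 185 to 190.0 in Glud1KO-labelled myoblasts, 102 to 112 against 96.6 to 103 in differentiated, and 131 to 141 against 130.2 to 139 in fused myotubes. The deposited file names also mark both groups as KO, so every direction between genotypes rests on the labels, and the libraries are called WT-labelled or KO-labelled. All 5 muscle markers (Myod1, Myf5, Des, Myog and Ckm) were detected, with summed CPM of 1551 to 1698 in WT-labelled and 1394 to 1457 in KO-labelled myoblasts (3 of 5 called lower under the KO label) and 6141 to 7416 in myotubes. The 3 proliferation markers (Mki67, Top2a and Ccnb1) summed to 734 to 831 CPM in myoblasts, 12.5 to 16.7 in the WT-labelled differentiated stage, 2.94 to 3.35 in its KO-labelled counterpart, and at most 1.10 in fused myotubes. In bulk RNA such as this, fewer cells of a type and less RNA per cell cannot be told apart. Of the fibroblast markers, Dpt and Lum did not pass the count filter, and the 5-marker sum reached at most 8.12 CPM. Marker sums of other cell types moved with the stages: over WT-labelled myoblasts, differentiated and fused myotubes the smooth muscle and pericyte list held 38.3 to 42.3 CPM and then 1.84 to 2.59 in both myotube stages, the neuron list 84.7 to 95.8, 24.2 to 28.7 and 13.3 to 15.2, and the macrophage and blood list 1.51 to 1.90, 15.5 to 18.5 and 8.49 to 10.3. Single genes of these lists did not move together. In WT-labelled fused myotubes against myoblasts, 3 of the 4 smooth muscle and pericyte genes were tested. Of these 0 were called higher and 1 lower, with a median log2 fold change of 0.43. Of the 5 neuron genes 3 were tested, with 1 called higher and 2 lower. Of the 5 macrophage and blood genes 2 were tested, with 1 called higher and 1 lower. In KO-labelled differentiated myotubes the neuron list held 9.59 to 10.8 and the macrophage and blood list 24.3 to 28.0 CPM. The endothelial, Schwann cell and adipocyte lists held at most 2.74 CPM, and the part of any of these in the results below was not tested.

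From WT-labelled myoblasts to fused myotubes, Ptbp1 and Mbnl3 fell, Rbfox1, Rbm24 and Rbfox2 rose, and the remaining regulators changed by less than 2-fold. Ptbp1 went from the most abundant of the 10 regulators to the eighth, and Rbfox1 from the last to the fifth. Celf1, Celf2, Rbfox2, Rbm24 and Mbnl2 peaked in the differentiated stage, whereas Mbnl1 and Ptbp2 were at their lowest there. The same directions held in the KO-labelled libraries, except for Celf1 between myoblasts and fused myotubes.

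All 10 regulators passed the test (edgeR quasi-likelihood test, Benjamini-Hochberg adjusted p under 0.05) in each stage comparison, in both genotype labels. This count is close to the background: of the 15123 genes tested under the WT label, 85.0% passed at the first step (myoblasts to differentiated myotubes), 75.1% at the second (differentiated to fused myotubes) and 85.5% over the whole course. In the KO-labelled libraries those shares were 83.7%, 70.2% and 87.2%. Under the WT label 6 regulators were higher and 4 lower after the first step (all genes: 42.4% and 42.6%), 3 higher and 7 lower after the second (37.4% and 37.7%), and 6 higher and 4 lower over the whole course (42.2% and 43.4%). At the first WT-labelled step, 8 of the 10 moved by at least 2-fold, and the median absolute log2 fold change was 1.45, against 0.92 over all genes tested. At the second step 2 of the 10 moved that far, with a median of 0.57 against 0.53. Consecutive stage comparisons share the differentiated libraries, so their values are not independent.

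**Figure D1:**
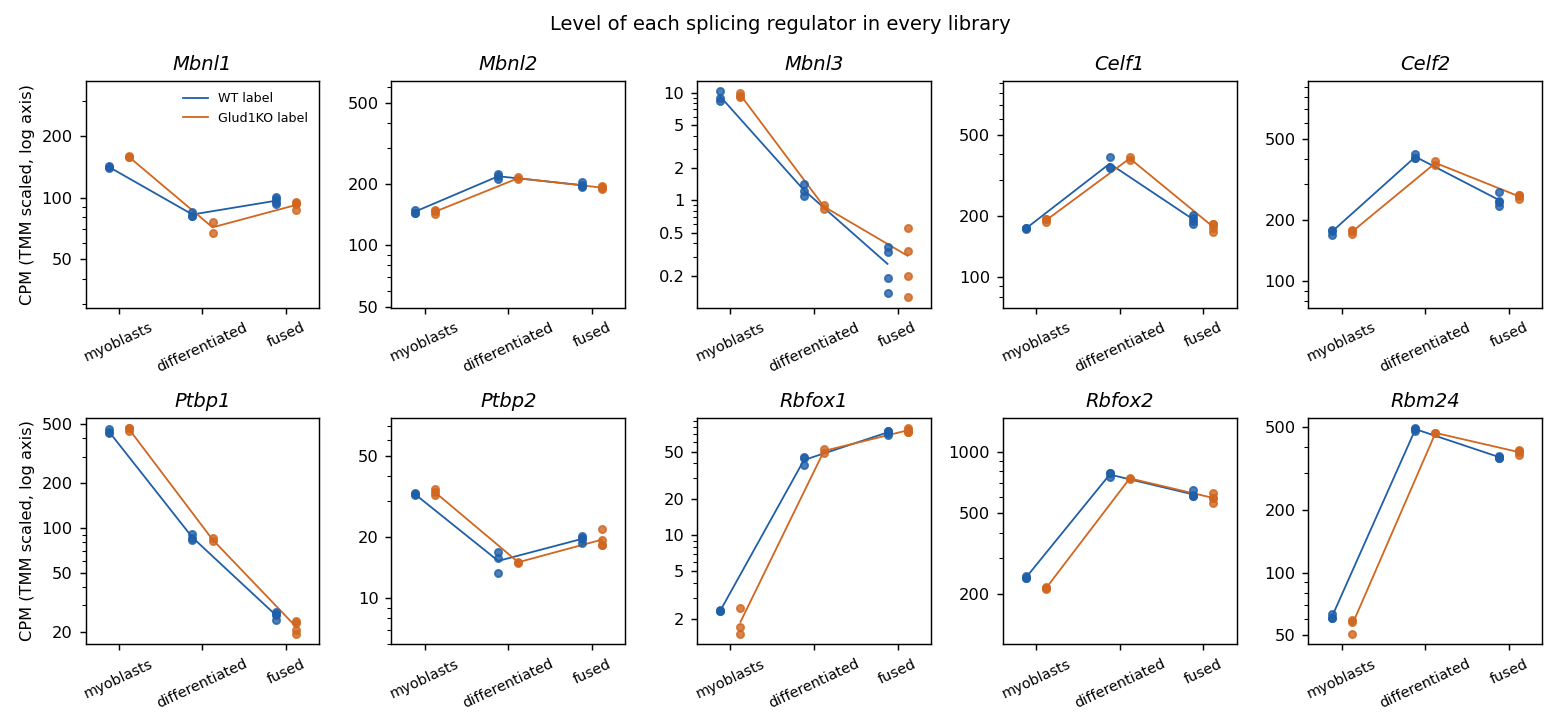
CPM of each regulator in every library (points, log axis; panels differ in scale) by stage, with lines through the group means; blue is the WT label and orange the Glud1KO label, 2 to 4 libraries per group. Ptbp1 declines at each step, from 434 to 460 CPM in WT-labelled myoblasts to 23.8 to 27.1 in fused myotubes, while Rbfox1 and Rbm24 lie far above their myoblast level in every myotube library.

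Ptbp1 (ENSMUSG00000006498.16, chr10:79854427-79864771, plus strand, GRCm38), the general exon repressor, had 441, 434 and 460.0 CPM in the 3 WT-labelled myoblast libraries, 82.9, 90.3 and 84.9 in the differentiated ones, and 25.8, 23.8, 26.3 and 27.1 in the fused ones. The 3 stages did not overlap, and each step was downward. The first step measured -2.37 on the log2 scale (SE 0.05, edgeR adjusted p 1.1e-25) and the second -1.73 (SE 0.05, adjusted p 8.7e-21), a 17.2-fold fall over both. In the KO-labelled libraries the means were 463, 83.4 and 21.5 CPM, a 21.4-fold fall. Plppr3, with at most 9.15 TPM, and E130317F20Rik, with at most 4.60 TPM, overlap Ptbp1 on the opposite strand, and no source used here says whether strand was used in counting.

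Its paralog Ptbp2 (ENSMUSG00000028134.11, chr3:119718742-119784466, minus strand), known as the neuronal counterpart that Ptbp1 holds down at the level of splicing, fell as well at the first step and rose at the second, to below its starting level. Its WT-labelled CPM values were 32.9, 32.7 and 32.2 in myoblasts, 13.3, 15.8 and 16.8 in differentiated myotubes, and 19.8, 20.3, 18.6 and 19.7 in fused myotubes. Myoblasts stood above both myotube stages, and the fused libraries above the differentiated ones. The log2 fold changes were -1.08 (SE 0.07) and then 0.35 (SE 0.07), with edgeR adjusted p of 3.1e-14 and 7.8e-05. On the TPM scale, which divides by transcript length and so allows levels of different genes to be compared, Ptbp1 stood 15.03 ± 1.0 times above Ptbp2 in WT-labelled myoblasts (SD, n = 3), 4.98 ± 0.97 times in differentiated myotubes (n = 3) and 1.31 ± 0.21 times in fused myotubes (n = 4). Ptbp2 was therefore 6.25% of the Ptbp1 plus Ptbp2 total at the start and 43.5% ± 3.6 at the end, while both genes were lower than at the start. The Ptbp1 TPM includes a 375-nt annotated transcript that held 32.5% of the gene's TPM in WT-labelled myoblasts, so that ratio depends on how reads were assigned to short models. Transcripts not annotated as protein coding held 14.3% ± 2.5, 41.7% ± 13 and 27.8% ± 15 of the Ptbp1 TPM over the WT-labelled stages. In Ptbp2 they held 38.4%, 39.3% and 40.1%, so the ratio and the Ptbp2 share also depend on counting them.

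Rbfox1 (ENSMUSG00000008658.16, chr16:5885355-7411526, plus strand), a Fox-family regulator typical of neurons and of heart and skeletal muscle, rose the most. Its CPM values in WT-labelled libraries were 2.32, 2.38 and 2.34 in myoblasts, 38.9, 45.0 and 44.1 in differentiated myotubes, and 74.9, 69.5, 74.0 and 72.0 in fused myotubes. No library of one stage reached the range of another, and the myoblast values rest on 52 to 75 estimated counts per library over both labels. It rose by 4.19 on the log2 scale (SE 0.09, edgeR adjusted p 1.8e-24) at the first step and by 0.77 (SE 0.06, adjusted p 1.2e-12) at the second, or 30.9-fold over both. In the KO-labelled libraries the rise was 40.5-fold.

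Rbfox2 (ENSMUSG00000033565.18, chr15:77078990-77307004, minus strand), the more widely expressed Fox protein, was abundant throughout. It had 240 to 245 CPM in WT-labelled myoblasts, 747 to 786 in differentiated myotubes and 603 to 647 in fused myotubes, so the fused libraries lay between the other stages. Its log2 fold changes were 1.68 (SE 0.04) and -0.32 (SE 0.04), with edgeR adjusted p of 1.1e-23 and 1.0e-08. By TPM, Rbfox1 made up 1.39% ± 0.07 of the Rbfox1 plus Rbfox2 total in WT-labelled myoblasts, 10.05% ± 0.77 in differentiated and 17.9% ± 1.7 in fused myotubes. Rbfox2 remained the larger contributor in every group, while the summed level went from 123 ± 2.1 TPM to 352 ± 26 and 317 ± 13. Transcripts not annotated as protein coding held 25.2%, 12.4% and 17.9% of the Rbfox2 TPM over the WT-labelled stages. In Rbfox1 they held 0%, 0.133% and 0%, so its share of the total also depends on counting them.

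Rbm24 (ENSMUSG00000038132.6, chr13:46418434-46431095, plus strand), a regulator known for promoting muscle-type exons and needed for sarcomere assembly, had 60.3, 60.8 and 63.0 CPM in WT-labelled myoblasts. It had 492, 489 and 476 CPM in differentiated myotubes and 355, 359.0, 360.5 and 354 in fused myotubes. Every myotube library was more than 5 times above every myoblast library. The rise was 7.92-fold at the first step (log2 fold change 2.98, SE 0.04, edgeR adjusted p 2.6e-28), followed by a log2 fold change of -0.44 (SE 0.04, adjusted p 3.4e-11). In differentiated myotubes Rbm24 and Rbfox2 were the most abundant of the 10 by TPM, at 304 ± 9.7 and 317 ± 25, and their ranges overlapped.

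The CELF proteins, which also act on mRNA stability and translation, rose and then fell back. Celf1 (ENSMUSG00000005506.16, chr2:90940382-91019497, plus strand) had 172, 173 and 175 CPM in WT-labelled myoblasts, 343, 389 and 348 in differentiated, and 195, 189, 182 and 201 in fused myotubes. Celf2 (ENSMUSG00000002107.18, chr2:6539694-7509563, minus strand) had 170, 179 and 176, then 403, 421 and 402, then 247, 234, 245 and 276 CPM. For both genes the differentiated libraries stood above all others. Log2 fold changes were 1.05 (SE 0.04) and -0.91 (SE 0.04) for Celf1, with edgeR adjusted p of 4.5e-18 and 8.0e-17. For Celf2 they were 1.22 (SE 0.05) and -0.70 (SE 0.04), with adjusted p of 2.1e-19 and 2.2e-14. Between myoblasts and fused myotubes Celf1 was nearly back at its start, with a log2 fold change of 0.15 (SE 0.04, adjusted p 0.0027) that became -0.17 when libraries were scaled by total count only, so its direction over the whole course depends on the scaling, and with no count filter the call was lost (0.09, adjusted p 0.055). Under the KO label it was -0.11 (SE 0.04, adjusted p 0.018). With effective transcript length in the fit that value turned to 0.09 (adjusted p 0.39). The call was also lost with DESeq2 size factors (adjusted p 0.094), in the DESeq2 test (0.095), with a filter at a mean CPM of 1 (0.14), and without KO-labelled myoblast library 2 or 3 or KO-labelled fused library 1 (adjusted p 0.057 to 0.080).

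Of the muscleblind proteins, which are known to repress or activate single exons in the fetal-to-adult switch, Mbnl1 fell and Mbnl2 rose. Mbnl1 (ENSMUSG00000027763.13, chr3:60472830-60629750, plus strand) had 140, 143 and 142 CPM in WT-labelled myoblasts, 81.1, 81.5 and 85.5 in differentiated, and 100.9, 94.9, 92.8 and 98.2 in fused myotubes. Mbnl2 (ENSMUSG00000022139.17, chr14:120275669-120431697, plus strand) had 150.1, 144 and 145, then 212, 220.2 and 224, then 197, 196, 193 and 206 CPM. The stages did not overlap for either gene. For Mbnl1 the log2 fold changes were -0.77 (SE 0.04) and 0.23 (SE 0.04), with edgeR adjusted p of 1.1e-15 and 2.0e-05. For Mbnl2 they were 0.58 (SE 0.04) and -0.14 (SE 0.03), with adjusted p of 1.8e-14 and 3.6e-04.

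Mbnl3 (ENSMUSG00000036109.17, chrX:51117269-51206532, minus strand), the family member linked to proliferating and regenerating muscle cells, was low from the start. It had 10.3, 8.90 and 8.36 CPM in WT-labelled myoblasts, 1.23, 1.09 and 1.41 in differentiated myotubes, and 0.14, 0.19, 0.37 and 0.33 in fused myotubes. The fused values rest on 3 to 8 estimated counts per library, and in the KO-labelled ones on 2 to 10. The log2 fold changes were -2.87 (SE 0.16, edgeR adjusted p 1.2e-15) and -2.27 (SE 0.31, adjusted p 2.2e-07). The second KO-labelled step, -1.45 (SE 0.38, adjusted p 0.0014), was lost when effective transcript length entered the fit (-0.50, adjusted p 0.39). Summed over the family, muscleblind RNA was 173 ± 2.5 TPM in WT-labelled myoblasts, 174 ± 6.0 in differentiated and 155 ± 7.3 in fused myotubes. The share of Mbnl2 in that sum was 54.6% ± 0.20, then 76.0% ± 1.1, then 69.6% ± 1.4. These values count every annotated transcript. Transcripts not annotated as protein coding held 34.7%, 45.7% and 38.9% of the Mbnl2 TPM over the WT-labelled stages. In Mbnl1 they held 12.9%, 24.9% and 26.5%, so the Mbnl2 share depends on counting them.

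The balance between the muscleblind and CELF families moved with these changes. By TPM the muscleblind sum was 1.29 ± 0.09 times the Celf1 plus Celf2 sum in WT-labelled myoblasts, 0.594 ± 0.044 times in differentiated myotubes and 0.972 ± 0.038 times in fused myotubes. In the KO-labelled groups these ratios were 1.36 ± 0.07, 0.548 ± 0.003 and 0.925 ± 0.015. The low point therefore lay in the differentiated stage under both labels, where the CELF sum was 294 ± 16 TPM against 135 ± 8.5 in WT-labelled myoblasts. The ratios also count transcripts not annotated as protein coding, which held 14.4%, 26.0% and 26.1% of the Celf1 TPM over the WT-labelled stages. In Celf2 they held 8.89%, 13.0% and 11.6%.

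**Figure D2:**
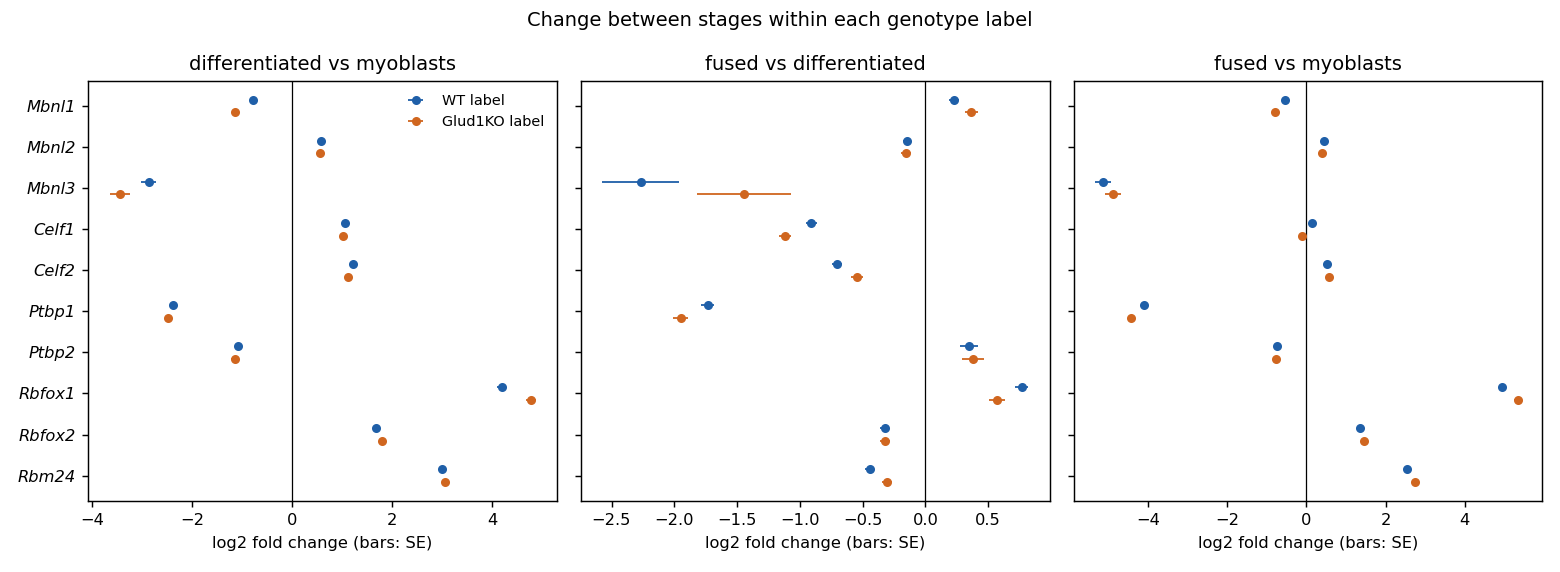
Log2 fold change with its SE (bars) for each regulator between stages, from the edgeR fit over 19 libraries, blue for the WT label and orange for the Glud1KO label; the panels have different x scales. Rbfox1, Rbm24 and Rbfox2 lie to the right and Ptbp1 and Mbnl3 to the left in the comparisons with myoblasts, and Celf1 sits at 0.15 and -0.11 between fused myotubes and myoblasts.

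By TPM the order in WT-labelled myoblasts ran Ptbp1 (473 ± 38), Rbfox2 (121), Mbnl2 (94.5), Celf2 (82.1), Mbnl1 (73.5), Celf1 (52.9), Rbm24 (38.7), Ptbp2 (31.5), Mbnl3 (5.14) and Rbfox1 (1.71), with no overlap between neighbours. In fused myotubes it ran Rbfox2 (260.4 ± 15), Rbm24 (204), Mbnl2 (108), Celf2 (106), Rbfox1 (56.6), Celf1 (54.1), Mbnl1 (47.0), Ptbp1 (22.3), Ptbp2 (16.9) and Mbnl3 (0.315). There the ranges of Mbnl2 and Celf2 overlapped, as did those of Rbfox1 and Celf1. Both orders count transcripts not annotated as protein coding. In WT-labelled myoblasts these held 34.7% of the Mbnl2, 12.9% of the Mbnl1 and 8.89% of the Celf2 TPM. In WT-labelled fused myotubes they held 38.9% of the Mbnl2 and 11.6% of the Celf2 TPM, so the place of Mbnl2 depends on counting them.

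Genes whose log2 CPM followed Rbfox1 most closely over the 19 libraries were Hspb7, Arhgef3, Cav3, Myl4 and Rhoq, each with a Pearson r of 0.999 among 8668 other genes with a mean of at least 10 CPM. For Mbnl3 they were Ier5, Tspan6, Slc5a3, Ralb and Acot7, with r between 0.989 and 0.993. These libraries fall into 3 stages, which all the genes share, so the values describe likeness of the stage pattern.

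The regulators also carry alternative exons of their own. An exon's inclusion share is the TPM of the annotated transcripts that hold it, as a percentage of those plus the transcripts that span it and leave it out; it rests on kallisto's division of reads among transcripts, with no estimate of its uncertainty in the tables used here. Of the members' exons, 45 could be tested, with at least 1 in each gene. Log2 ratios of the included to the skipped side were compared with limma, adjusted over 14436 exons.

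The exons that the results turn on are printed here 5′ to 3′ on the RNA strand from the GENCODE M21 transcripts, with the exon in capitals and 15 bases of its neighbour exons in lower case. The first 4 are the alternative 40-nt and 43-nt exons of the Fox genes, of which one or the other is used; as background, the 40-nt form is known from brain and the 43-nt form from muscle.
Rbfox1 40-nt exon: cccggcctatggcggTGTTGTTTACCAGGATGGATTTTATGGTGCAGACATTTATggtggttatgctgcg
Rbfox2 40-nt exon: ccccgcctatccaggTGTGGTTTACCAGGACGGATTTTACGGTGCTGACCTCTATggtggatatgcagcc
Rbfox1 43-nt exon: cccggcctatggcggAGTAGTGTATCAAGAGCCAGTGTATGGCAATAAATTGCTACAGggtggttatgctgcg
Rbfox2 43-nt exon: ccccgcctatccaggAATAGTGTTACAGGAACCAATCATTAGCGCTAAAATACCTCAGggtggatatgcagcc
They lie at chr16:7363865-7363904 and chr16:7369801-7369843 (Rbfox1) and chr15:77094451-77094490 and chr15:77091812-77091854 (Rbfox2). The 40-nt exons of the paralogs were identical at 34 of 40 positions (85.0%), and the 43-nt exons at 27 of 43 (62.8%). All 4 are coding, and their lengths leave 1 base over a whole number of codons.

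In Rbfox2, the 43-nt exon rose and the 93-nt exon fell with differentiation. The 43-nt share was 26.9%, 25.2% and 30.7% in WT-labelled myoblasts, 36.2%, 36.5% and 36.9% in differentiated, and 37.4%, 40.6%, 39.4% and 38.3% in fused myotubes. Myoblasts stood below both myotube stages, and the log2 ratio rose by 0.73 (SE 0.13, limma adjusted p 2.5e-04) from myoblasts to fused myotubes. From myoblasts to differentiated myotubes it rose by 0.58 (SE 0.13, adjusted p 0.0037), a call that was lost when estimated counts replaced TPM (0.27, adjusted p 0.068). The 40-nt share was 61.5% ± 2.4, 57.9% ± 0.33 and 56.4% ± 1.6, and its difference between fused myotubes and myoblasts (log2 ratio -0.30, SE 0.12, adjusted p 0.063) did not pass the test.

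In Rbfox1 the same pair could hardly be read in myoblasts, where the gene totalled 1.71 TPM. The 43-nt share was 14.8%, 0% and 40.7% in the WT-labelled myoblast libraries and 40.7%, 51.2% and 40.8% in the KO-labelled ones. In differentiated and fused myotubes it lay between 47.9% and 57.6% in all 13 libraries. The rise of the log2 ratio from WT-labelled myoblasts to differentiated myotubes, 1.35 (SE 0.31, limma adjusted p 0.0035), was lost with estimated counts (0.78, adjusted p 0.054).

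The 93-nt exon of Rbfox2 (chr15:77105577-77105669) encodes part of the RNA recognition motif, and as background the form without it binds RNA poorly.
Rbfox2 93-nt exon: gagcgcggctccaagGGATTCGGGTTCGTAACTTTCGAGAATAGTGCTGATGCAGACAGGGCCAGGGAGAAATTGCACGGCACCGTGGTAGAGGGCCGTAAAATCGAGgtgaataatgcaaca
Its share was 91.9%, 89.1% and 88.4% in WT-labelled myoblasts, 76.3%, 79.2% and 75.1% in differentiated, and 73.7%, 71.5%, 73.7% and 73.4% in fused myotubes. The log2 ratio fell by 1.36 (SE 0.16, limma adjusted p 7.6e-06) at the first step, and the second step did not pass the test (-0.30, SE 0.15, adjusted p 0.23). KO-labelled shares were 89.2% ± 0.94, 76.6% ± 0.43 and 73.4% ± 1.7.

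Mbnl1 and Mbnl2 share a pair of exons that are shown because their behaviour differed. The 54-nt exon is known to help carry the protein to the nucleus and to be skipped more when MBNL protein is plentiful; the 36-nt exon is known to favour MBNL1 dimers.
Mbnl1 54-nt exon: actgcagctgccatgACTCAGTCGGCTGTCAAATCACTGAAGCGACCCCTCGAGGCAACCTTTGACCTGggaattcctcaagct
Mbnl2 54-nt exon: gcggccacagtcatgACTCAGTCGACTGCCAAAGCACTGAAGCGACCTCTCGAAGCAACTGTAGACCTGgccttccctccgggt
Mbnl1 36-nt exon: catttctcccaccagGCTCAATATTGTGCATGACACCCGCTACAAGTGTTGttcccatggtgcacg
Mbnl2 36-nt exon: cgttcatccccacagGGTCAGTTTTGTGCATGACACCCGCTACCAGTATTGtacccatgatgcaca
They lie at chr3:60614683-60614736 and chr3:60621423-60621458 (Mbnl1) and at chr14:120395712-120395765 and chr14:120403336-120403371 (Mbnl2). The paralogs were identical at 46 of 54 positions (85.2%) and at 31 of 36 positions (86.1%).

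The 36-nt exon of Mbnl1 was kept in 49.7%, 51.5% and 52.4% of the TPM in WT-labelled myoblasts, in 42.9%, 31.2% and 41.1% in differentiated, and in 39.6%, 34.1%, 22.6% and 30.9% in fused myotubes. All myotube libraries lay below all WT-labelled myoblast libraries, and the spread within the fused group was wide. The log2 ratio fell by 1.15 (SE 0.37, limma adjusted p 0.022) from myoblasts to fused myotubes. That call was lost without WT-labelled fused library 3 (-0.94, adjusted p 0.068), without WT-labelled myoblast library 2 (-1.14, adjusted p 0.058) and without library 3 of that group (-1.12, adjusted p 0.064). The Mbnl2 counterpart was nearly always left out, with group means of 0% to 3.69%.

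The 54-nt exons passed no test. In Mbnl1 the share was 45.0% ± 2.2, 50.4% ± 5.2 and 51.3% ± 4.7 over the WT-labelled stages, with a log2 ratio change of 0.36 (SE 0.25, limma adjusted p 0.29) between myoblasts and fused myotubes. In Mbnl2 it was 43.1% ± 0.38, 45.6% ± 3.0 and 44.2% ± 4.9, with a change of 0.06 (SE 0.20, adjusted p 0.85). A 201-nt coding exon of Mbnl1 (chr3:60603694-60603894) had shares of 96.3% ± 1.0, 91.3% ± 0.98 and 84.7% ± 8.7, called between myoblasts and fused myotubes (-1.95, SE 0.69, adjusted p 0.038) but lost on leaving out any of the 3 WT-labelled myoblast libraries (adjusted p 0.060 to 0.11) or fused library 3 or 4 (0.11 and 0.077). A processed transcript of Mbnl2 with no annotated coding sequence held 33.7%, 42.7% and 38.2% of that gene's TPM over the WT-labelled stages.

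Ptbp1 and Ptbp2 each have a 34-nt exon whose loss shifts the reading frame and is known to expose the RNA to decay; PTBP1 protein is known to promote that loss in both genes.
Ptbp1 34-nt exon: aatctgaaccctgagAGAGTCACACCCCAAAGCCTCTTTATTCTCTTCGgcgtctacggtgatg
Ptbp2 34-nt exon: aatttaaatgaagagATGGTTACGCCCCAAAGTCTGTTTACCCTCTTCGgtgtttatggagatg
They lie at chr10:79862014-79862047 and chr3:119724612-119724645 and were identical at 26 of 34 positions (76.5%). In Ptbp2 the share was 69.2%, 70.9% and 63.3% in WT-labelled myoblasts, 65.9%, 54.04% and 69.7% in differentiated, and 67.9%, 67.7%, 59.9% and 62.4% in fused myotubes. The stages overlapped, and the change between myoblasts and fused myotubes was -0.23 on the log2 ratio scale (SE 0.28, limma adjusted p 0.56), while Ptbp1 RNA fell 17.2-fold. In Ptbp1 the share was 81.8% ± 1.2, 82.7% ± 3.5 and 85.2% ± 8.9, with a change of 0.16 (SE 0.59, adjusted p 0.87). A miss at these errors does not show that the shares stayed the same.

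Celf2 and Rbm24 each had 1 further exon that moved. A 144-nt coding exon of Celf2 (chr2:6549832-6549975) was kept in 69.2%, 73.3% and 67.5% of the TPM in WT-labelled myoblasts, 84.3%, 82.8% and 83.7% in differentiated, and 83.6%, 83.3%, 78.1% and 80.9% in fused myotubes. The first step was called by limma (1.12, SE 0.21, adjusted p 7.2e-04), but with estimated counts it was not (0.19, adjusted p 0.35). A 113-nt segment of Rbm24 (chr13:46422276-46422388), found in models that retain an intron and lack a coding sequence, went from 3.57%, 6.70% and 2.04% in WT-labelled myoblasts to 18.6% to 20.7% in differentiated and 18.7% to 24.6% in fused myotubes. Its log2 ratio rose by 2.23 (SE 0.28, adjusted p 1.3e-05) at the first step.

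The 4 remaining exons named by the same rule, 3 in Mbnl3 and a 196-nt one in Ptbp1, rest on under 2 TPM for both sides together in WT-labelled fused myotubes. In Mbnl3 those totals were 0.12 TPM or less, and the shares of 2 of its exons ran from 0% to 100% between fused libraries, so no direction is read from them. Over all 45 exons, 17 were called in WT-labelled differentiated myotubes against myoblasts, 8 of them with at least 10 percentage points. For fused against differentiated myotubes 1 was called, and for fused myotubes against myoblasts 17, of which 11 moved by at least 10 points. Over all exons tested, 29.0%, 13.4% and 35.1% were called. The single call between fused and differentiated myotubes is one of the Mbnl3 exons. Of 110 transcripts of the regulators, tested against the rest of their gene, 53, 16 and 38 were called in these comparisons, where 36.2%, 24.3% and 36.8% of all 60948 transcripts were. The main coding transcript of Rbm24 held 85.9% ± 10, 76.2% ± 1.1 and 76.3% ± 2.5 of that gene's TPM over the WT-labelled stages. It was not called in any of these comparisons (limma adjusted p 0.13, 0.99 and 0.10).

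**Figure D3:**
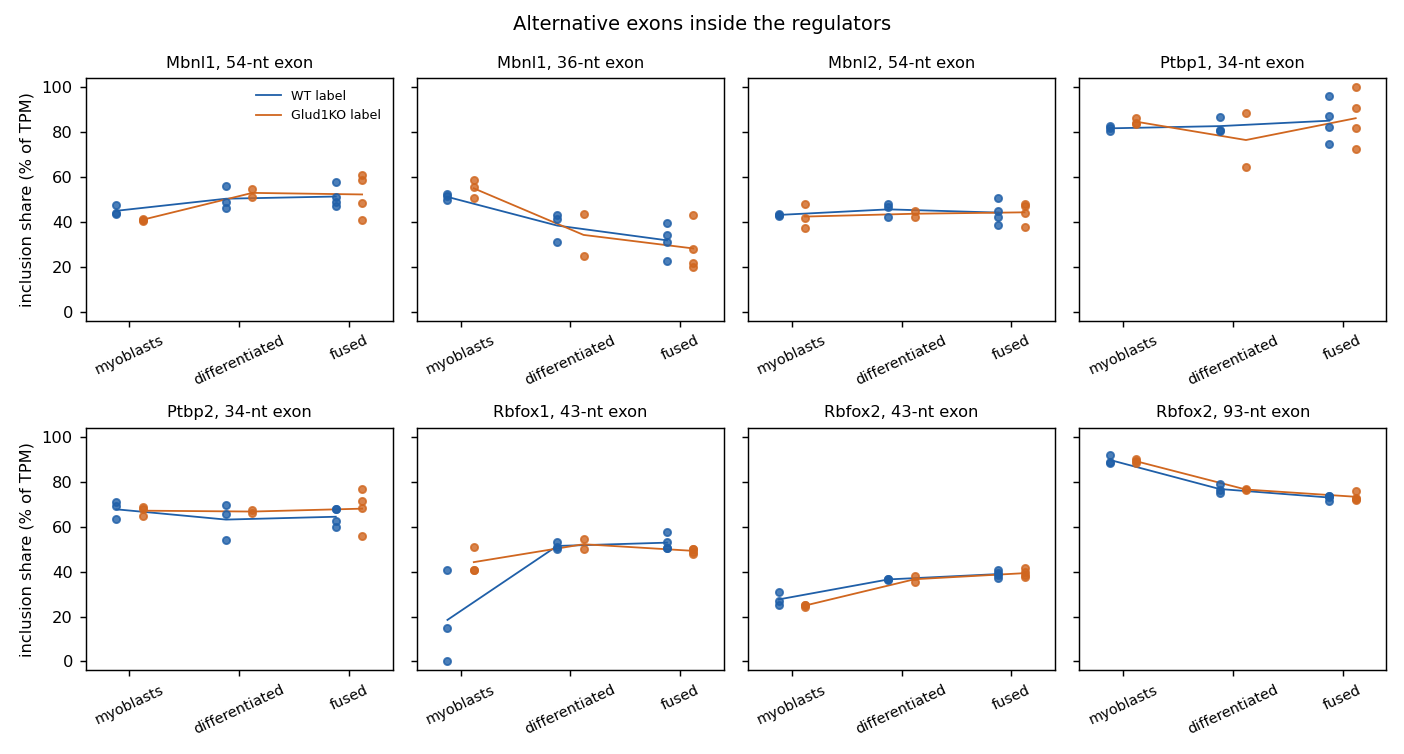
Inclusion share (percent of TPM) of 8 alternative exons of the regulators in every library (points), by stage, with lines through group means; blue is the WT label and orange the Glud1KO label. The Rbfox2 93-nt exon declines from 88.4% to 91.9% in WT-labelled myoblasts to 71.5% to 73.7% in fused myotubes, whereas the Ptbp2 34-nt exon shows overlapping stages.

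Exons of 16 genes known as targets of these families were also compared, and 68 such exons could be tested. The genes, not the single exons, were taken as known targets. The exons described below were picked in these data, as the 1 per gene with the largest called difference between WT-labelled stages. Each of them therefore had to move, and their movement is no separate evidence. In WT-labelled libraries 37, 28 and 51 of them were called at the first step, at the second step and over the whole course. Over all exons tested, 29.0%, 13.4% and 35.1% were called. Of the called target exons 15, 11 and 22 moved by at least 10 points. The 16 genes were put on the list for their splicing in muscle, and 14, 7 and 17 of the called exons moved by 1 point or less, where the ratio follows the level of the gene against the pseudocount of 0.5 TPM. The genes themselves mostly rose: 13 of 16 were called higher and 3 lower in fused myotubes against myoblasts, where 42.2% and 43.4% of all genes tested were.

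Pyruvate kinase Pkm carries a mutually exclusive pair of 167-nt exons. As background, the upstream exon 9 gives the PKM1 enzyme of adult muscle, the downstream one gives the PKM2 enzyme of dividing cells, and PTBP1 is known to repress exon 9. The pair is shown because the more abundant exon changed over the course.
Pkm exon 9: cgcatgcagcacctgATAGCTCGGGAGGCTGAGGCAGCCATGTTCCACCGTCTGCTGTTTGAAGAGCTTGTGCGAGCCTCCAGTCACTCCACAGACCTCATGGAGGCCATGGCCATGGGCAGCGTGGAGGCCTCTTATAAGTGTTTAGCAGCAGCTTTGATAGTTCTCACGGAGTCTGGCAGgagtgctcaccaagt
Pkm alternative exon: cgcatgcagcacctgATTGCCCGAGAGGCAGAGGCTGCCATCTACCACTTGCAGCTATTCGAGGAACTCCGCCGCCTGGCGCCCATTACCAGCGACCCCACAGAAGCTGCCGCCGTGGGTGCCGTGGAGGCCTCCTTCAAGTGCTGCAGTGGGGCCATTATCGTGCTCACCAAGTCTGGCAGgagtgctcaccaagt
They lie at chr9:59675029-59675195 and chr9:59675568-59675734 and matched at 103 of 167 positions (61.7%). The share of exon 9 was 20.9%, 17.9% and 16.4% in WT-labelled myoblasts, 54.1%, 55.0% and 55.0% in differentiated, and 65.4%, 65.8%, 63.0% and 64.1% in fused myotubes. The stages did not overlap, and the log2 ratio rose by 2.43 (SE 0.12, limma adjusted p 2.8e-10) and then by 0.59 (SE 0.11, adjusted p 0.0016). Each side rests on 1 annotated transcript, with 1445 to 1776 TPM for both in the WT-labelled groups. KO-labelled shares were 16.6% ± 1.6, 59.2% ± 0.57 and 64.5% ± 0.84.

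An 81-nt exon of Fxr1 (chr3:34064974-34065054), an RNA-binding protein of muscle whose longer forms with such exons are known as the muscle type, rose at the first step.
Fxr1 81-nt exon: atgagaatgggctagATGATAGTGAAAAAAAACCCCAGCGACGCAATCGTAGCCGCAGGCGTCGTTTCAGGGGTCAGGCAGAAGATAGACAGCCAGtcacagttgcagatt
Its share was 14.98%, 14.9% and 13.5% in WT-labelled myoblasts, 52.6%, 50.3% and 50.2% in differentiated, and 51.1%, 50.7%, 54.7% and 51.8% in fused myotubes. The first step was 2.61 on the log2 ratio scale (SE 0.11, limma adjusted p 1.0e-10), and the second was 0.06 (SE 0.11, adjusted p 0.78).

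The exons picked in the same way from other target genes moved at different steps. An 843-nt exon of Enah, an actin regulator, went from 37.5% ± 3.6 to 98.5% ± 0.08 and 99.2% ± 0.66. A 111-nt exon of Cttn, the actin-binding protein cortactin, fell from 45.8% ± 2.0 to 20.5% ± 1.2 and 14.9% ± 1.7. These 2 passed the test at the first step (limma adjusted p 2.2e-08 and 5.5e-06). A 9-nt exon of Tnnt2, the cardiac-type troponin T, had most of its change at the second step, at 5.09% ± 1.1, 7.20% ± 0.41 and 37.3% ± 1.4. A 57-nt exon of Cacna1s, the muscle calcium channel, rose from 25.7% ± 1.7 in differentiated to 52.9% ± 1.2 in fused myotubes. Both were called between differentiated and fused myotubes (adjusted p 6.8e-10 and 0.0061), and Tnnt2 also at the first step (log2 ratio 0.52, adjusted p 0.0086). The Cacna1s call was lost with a pseudocount of 0.1 TPM (adjusted p 0.064). Its call between myoblasts and fused myotubes was lost without WT-labelled myoblast library 3 (0.95, limma adjusted p 0.058). A 15-nt exon of Ldb3, a Z-disc protein, rose at both steps, from 64.2% ± 3.4 to 76.5% ± 0.83 and 88.4% ± 0.55 (adjusted p 1.7e-04 and 1.4e-05). A 66-nt exon of Actn1, non-muscle alpha-actinin, rose from 41.5% ± 2.1 to 53.6% ± 2.1 at the second step (adjusted p 0.0084). The rule that named 1 exon per target gene also chose exons of Bin1, Insr, Clcn1, Nrap, Tnnt3, Dmd and Fn1. With a pseudocount of 0.1 TPM the first-step calls were lost for Insr (-1.55, limma adjusted p 0.13), Nrap (1.91, adjusted p 0.076) and Bin1 (0.28, adjusted p 0.093). The second-step call of Clcn1 was lost likewise (-2.455, adjusted p 0.23). Leaving out WT-labelled myoblast library 2 or 3 or differentiated library 2 or 3 also lost the Insr call (limma adjusted p 0.054 to 0.11). The same fits lost the Bin1 call (0.064 to 0.16), as did a mean of at least 0.1 TPM (0.056) and the replicate block (0.081). The Clcn1 call was lost with that block (0.0503) and without WT-labelled differentiated library 1 or 2 or fused library 1, 3 or 4 (0.060 to 0.13).

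**Figure D4:**
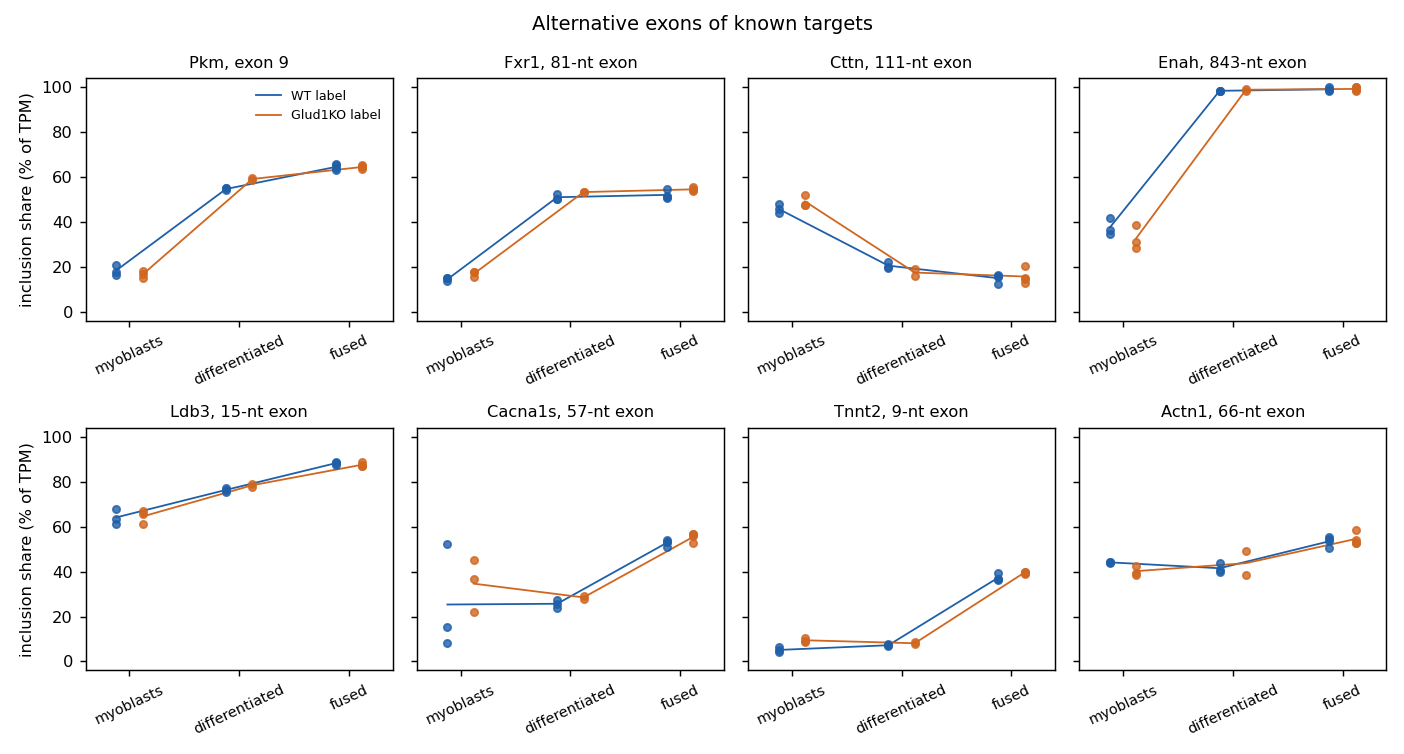
Inclusion share (percent of TPM) of 8 exons in known target genes in every library (points), by stage, with lines through group means; blue is the WT label and orange the Glud1KO label. Pkm exon 9, Fxr1 and Enah rise and Cttn falls between myoblasts and differentiated myotubes, whereas Tnnt2 lies at or below 10.5% until the fused stage, where it is 36.5% to 40.04%.

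Other splicing proteins mostly declined over the same course. Of 12 tested SR proteins, which as a family promote exon use, all 12 were called lower in WT-labelled fused myotubes than in myoblasts, with a median log2 fold change of -1.80 against -0.01 over all genes tested. Srsf9 (-3.01, SE 0.06), Srsf7 (-2.49, SE 0.05) and Srsf2 (-2.21, SE 0.04) had the largest falls. Of 19 hnRNP proteins, a family that often opposes exon use, 17 were called lower and 1 higher, with a median of -1.26 and with Hnrnpa1 (-2.79, SE 0.04) and Hnrnpa3 (-2.21, SE 0.04) in front. Of 20 tested regulators from other tissue-restricted families, 11 were lower and 5 higher. Among them the third PTB-family gene Ptbp3 fell by 3.12 on the log2 scale (SE 0.06), from 129 to 14.7 CPM, and Celf4 fell by 3.59 (SE 0.11), from 18.7 to 1.56 CPM. Rbm38 rose by 2.71 (SE 0.06). In this comparison 43.4% of all genes tested were called lower and 42.2% higher.

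Between the genotype labels the regulators differed little. In each stage 2 of the 10 were called (edgeR quasi-likelihood test, Benjamini-Hochberg adjusted p under 0.05), where 11.6% of all genes were called in myoblasts, 25.2% in differentiated and 13.0% in fused myotubes, and no regulator differed by 2-fold. Absolute log2 fold changes of the 10 had medians of 0.09, 0.07 and 0.06, against 0.11, 0.17 and 0.11 over all genes tested.

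Mbnl1 was called in opposite directions at the first 2 stages. In myoblasts it had 158, 158 and 160.3 CPM under the KO label against 140, 143 and 142 under the WT label, higher by 0.16 on the log2 scale (SE 0.04, edgeR adjusted p 0.0075). In differentiated myotubes it had 75.8 and 67.4 CPM against 81.1, 81.5 and 85.5, a log2 difference of -0.21 (SE 0.05, adjusted p 0.0026). The groups did not overlap at either stage. The myoblast call was lost when effective transcript length entered the fit (0.06, adjusted p 0.68), and the differentiated one without KO-labelled differentiated library 2 (-0.13, adjusted p 0.15), a fit with 1 KO-labelled library at that stage, which is assumed to vary like the other groups.

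Rbfox2 was lower in KO-labelled myoblasts, at 211, 214 and 217 CPM against 240, 245 and 240 (log2 fold change -0.17, SE 0.04, edgeR adjusted p 0.0055), and the groups did not overlap. Of the muscle markers, with the sums given above, 3 of 5 were called lower in the same libraries, and their part in this difference was not tested. Celf1 (0.13, SE 0.05, adjusted p 0.055) and Rbm24 (-0.13, SE 0.05, adjusted p 0.058) did not overlap in myoblasts either and missed the threshold. Rbfox1 was higher in KO-labelled differentiated myotubes, at 52.8 and 48.9 CPM against 38.9, 45.0 and 44.1 (0.25, SE 0.07, adjusted p 0.0068). That call was lost without KO-labelled differentiated library 1 (0.20, adjusted p 0.13; again 1 library in that group, with the spread taken from the others) and with effective transcript length in the fit (0.22, adjusted p 0.16). All 3 proliferation markers were called lower in the KO-labelled differentiated libraries, with the sums given above, and their part in the differences at this stage was not tested.

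In fused myotubes Ptbp1 was lower under the KO label, at 19.3, 20.5, 22.8 and 23.6 CPM against 25.8, 23.8, 26.3 and 27.1. The highest KO-labelled library lay just below the lowest WT-labelled one, with a log2 difference of -0.26 (SE 0.06, edgeR adjusted p 0.0039). With effective transcript length in the fit it was -0.45 with an adjusted p of 0.16. Celf1 was lower at 166, 175, 181 and 181 CPM against 195, 189, 182 and 201 (-0.12, SE 0.04, adjusted p 0.041), and 5 of the 8 fits that leave out 1 library lost that call (adjusted p 0.052 to 0.16), namely those without WT-labelled fused library 1, 2 or 4 or KO-labelled fused library 1 or 2.

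**Figure D5:**
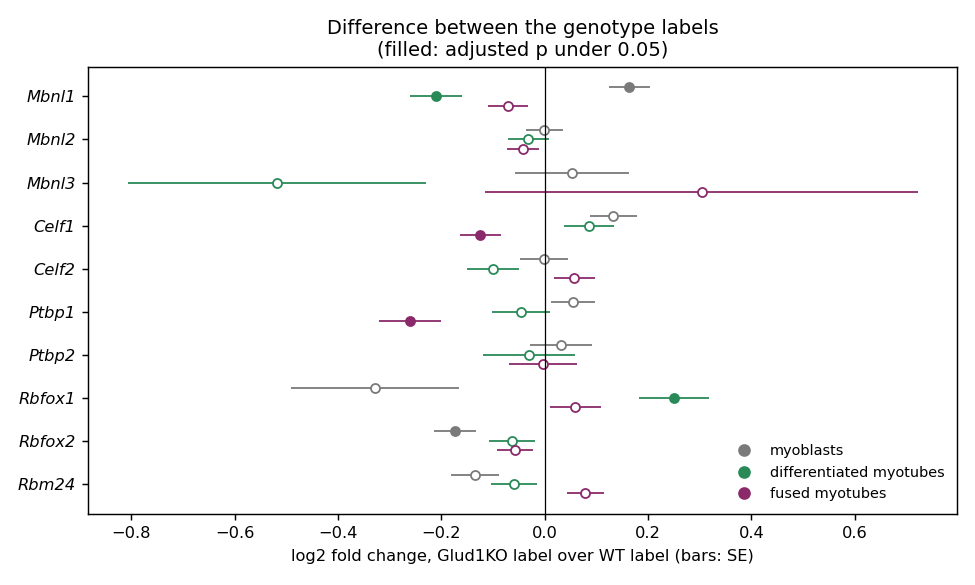
Log2 fold change of the KO-labelled over the WT-labelled libraries with its SE (bars) for each regulator at the 3 stages; filled points have an edgeR adjusted p under 0.05. Mbnl1 lies at 0.16 in myoblasts and -0.21 in differentiated myotubes, and most of the other points lie within 0.2 of 0, the others being Mbnl3, which rests on few counts, Rbfox1 and Ptbp1.

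The difference of the genotype effect between stages was tested for each regulator. Between myoblasts and differentiated myotubes 2 of 10 were called (19.1% of all genes), Mbnl1 with -0.37 (SE 0.06, edgeR adjusted p 1.2e-04) and Rbfox1 with 0.58 (SE 0.18, adjusted p 0.020). Between differentiated and fused myotubes 1 was called (14.8%), Celf1 with -0.21 (SE 0.06, adjusted p 0.026). Between myoblasts and fused myotubes 4 were called (10.3%): Mbnl1 with -0.23 (adjusted p 0.0063), Celf1 with -0.26 (adjusted p 0.0059), Ptbp1 with -0.32 (adjusted p 0.0055) and Rbm24 with 0.21 (adjusted p 0.018). These 3 tests share libraries with each other and with the stage comparisons. The fit with effective transcript length lost each of these calls (adjusted p 0.061 to 0.54).

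None of the 45 member exons was called between the genotype labels at any stage by limma, where 0.0762%, 0.194% and 0.0554% of all exons tested were. At an unadjusted p under 0.05 there were 5 in myoblasts, 0 in differentiated and 1 in fused myotubes, and with estimated counts in place of TPM again none was called. Without WT-labelled myoblast library 3, the Rbfox1 40-nt and 43-nt pair was called in myoblasts (log2 ratio of the 43-nt exon 1.52, adjusted p 0.021). Among the 68 target exons 1 was called, the 9-nt exon of Tnnt2 in myoblasts, with 10.5%, 8.93% and 8.84% under the KO label against 6.28%, 4.86% and 4.14% under the WT label (log2 ratio 0.96, SE 0.13, adjusted p 0.0073). With estimated counts 2 target exons were called in myoblasts, 1 in differentiated and 0 in fused myotubes. The 1 in differentiated myotubes was a 144-nt exon of Fn1 (log2 ratio -2.25, limma adjusted p 7.2e-04). It was also called there with a pseudocount of 1 TPM (-2.02, adjusted p 0.028). Of the 110 transcripts 0, 1 and 0 were called by limma at the 3 stages, where 0.136%, 0.405% and 0.0591% of all transcripts were, and 11, 6 and 7 had an unadjusted p under 0.05. The 1 was a Ptbp2 model in differentiated myotubes (log2 ratio to the rest of the gene -1.43, SE 0.24, adjusted p 0.015), which was lost with estimated counts and on leaving out either of the 2 KO-labelled libraries, where 1 is left and the spread comes from the other groups.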

How the data were processed

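RNA-seq libraries of mouse primary myoblasts were analysed from the tables the authors deposited, 1 for each library, holding 121843 transcripts, each with its estimated count and its TPM. The expected (estimated) counts deposited by the authors come from kallisto 0.46.1 after fastp 0.20.0, with build GRCm38.p6, per the submitters' processing notes, which also name bcl2fastq 2.20 and edgeR 3.36. The TPM values deposited by the authors are transcript abundances scaled for length and depth, per the file headers, and keep no depth of their own. Effective transcript lengths, also in the headers, entered 1 alternative.

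Transcripts were matched to GENCODE M21, 121018 of them by identifier and 120744 of those with the same length. The 825 without a match held 0.255% to 0.507% of a library's counts and were left out. Counts were summed per gene and rounded. All 19 libraries entered 1 edgeR 4.0.16 fit in R 4.3.3 with 6 groups, filterByExpr (15123 genes) and TMM scaling. There were 12 comparisons by the quasi-likelihood test, with p-values adjusted after Benjamini and Hochberg over all genes and called at an adjusted p under 0.05. The biological coefficient of variation was 4.03%, and replicates of a group differed by more than sampling noise (chi-square per degree of freedom 2.14 to 7.66).

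For exons and transcripts, log2 ratios of TPM with a pseudocount of 0.5 TPM were compared with limma 3.58.1 in 6 comparisons, for features with a mean of at least 1 TPM and both sides at 0.1 TPM or more in at least 2 libraries. Exons lying in the same gene, and sharing transcripts, are not independent. Member exons were named when called with a difference of at least 10 percentage points, at most 12, and target exons as the 1 per gene with the largest called difference between WT-labelled stages. A few uncalled counterpart exons were added for their paralogs. Likeness was ranked by Pearson r, 5 genes each. The members and gene lists were chosen with earlier results of these data known. Alternatives were other scalings, DESeq2 1.42.0, other filters and pseudocounts, an effective-length offset, a replicate block and leaving out each library. Both tests were tried on simulated data first. Paralogs can exchange estimated counts.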

Additional observations from a re-analysis of the deposited data

Results flagged for a closer look

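In groups of 4 libraries, 69 sets of values were checked for 1 library standing apart by Dixon's criterion, which chance meets in about 1 in 20. Rbfox2 in WT-labelled fused myotubes was flagged for a library at 647 CPM, with the others at 603 to 609. The 93-nt exon of Rbfox2 in the same group had 1 library at 71.5%, with the others at 73.4% to 73.7%. The 72-nt exon of Bin1, a membrane-tubule gene, had 1 at 50.2% with the others at 51.7% to 52.0%, and the 9-nt exon of Tnnt2 had 1 at 39.5% with the others at 36.5% to 36.7%, all in that group.

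The genotype effect differed between stages by the test of the difference in the regulators given above. Between myoblasts and differentiated myotubes these were Mbnl1 (-0.37) and Rbfox1 (0.58), the latter lost without WT-labelled myoblast library 3, KO-labelled myoblast library 1 or 2 or KO-labelled differentiated library 1, the last leaving 1 library in that group (edgeR adjusted p 0.051 to 0.11). Between differentiated and fused myotubes it was Celf1 (-0.21), lost on leaving out WT-labelled differentiated library 1 or 3, WT-labelled fused library 4, or library 1 of either KO-labelled myotube group (1 library is then left in the differentiated one) (adjusted p 0.050 to 0.12). Between myoblasts and fused myotubes they were Mbnl1 (-0.23), Celf1 (-0.26), Ptbp1 (-0.32) and Rbm24 (0.21), the last lost without WT-labelled myoblast library 3 or KO-labelled myoblast library 1 (adjusted p 0.065 and 0.087).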

How the results depend on the processing

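In the stage comparisons the regulators kept direction and call in 850 recomputed values, lost the call in 8 and reversed in 2: Celf1 between fused myotubes and myoblasts went to -0.1737 under library size only (WT label) and to 0.08639 under the effective-length offset (KO label). Under library size only, the median log2 fold change of all genes was -0.23, -0.33, -0.31 and -0.35 in the comparisons with myoblasts, against -0.03 to 0.02 with TMM. The share of higher calls then went from 49.9% to 40.4% for WT-labelled differentiated myotubes against myoblasts and from 43.9% to 27.0% between genotypes in differentiated myotubes. Between genotypes, 994 values stayed, 32 lost and 23 gained a call. The number of regulators called in myoblasts (2) was 1 with the offset, 4 with the compared libraries alone and 2 to 4 with 1 library left out. In differentiated myotubes (2) it was 4 under library size only and 1 to 3 with 1 left out, and in fused myotubes (2) it was 1 under library size, 0 with the offset and 1 to 2 with 1 left out. For the change of the genotype effect from myoblasts to differentiated myotubes (2) it was 1 with the offset and 1 to 2 with 1 left out. With the offset Mbnl1 and Rbfox1 lost that call, and the 1 was Mbnl3 (-1.43, edgeR adjusted p 0.045). The offset also gave Mbnl3 a call between genotypes in differentiated myotubes (-1.27, adjusted p 0.033). Mbnl3 rests there on 16 to 17 estimated counts per KO-labelled library and 25 to 40 per WT-labelled one. From differentiated to fused myotubes (1) it was 2 under library size and with DESeq2, 0 with the offset and with the compared libraries alone, and 0 to 2 with 1 left out. Under library size the 2 were Celf2 (0.21, edgeR adjusted p 0.026) and Rbm24 (0.19, adjusted p 0.031), while Celf1 lost its call (-0.16, adjusted p 0.13). From myoblasts to fused myotubes (4) the number was 0 with the offset. Member exons called between WT-labelled differentiated and fused myotubes (1) numbered 0 with a pseudocount of 0.1 TPM, 2 with 1 TPM, 0 at a mean of at least 5 TPM, 6 with estimated counts and 0 to 3 with 1 library left out. Those between WT-labelled myoblasts and fused myotubes (17) numbered 11 with 0.1 TPM, and those between genotypes in myoblasts (0) reached 0 to 2 with 1 left out. Member transcripts called between WT-labelled differentiated and fused myotubes (16) numbered 31 with estimated counts, and the 1 between genotypes in differentiated myotubes numbered 0 with estimated counts and 0 to 1 with 1 left out. The cause of these moves was not tested. Libraries with the same replicate number did not deviate together (0 of 41 pairs with r over 0.1, and 5 of 19 libraries correlated best with their own number); with the replicate block the member exons called between WT-labelled differentiated and fused myotubes were 0, and the regulators called were 10 in each stage comparison and 2 in each genotype comparison, as without it. Depth limits Mbnl3 in myotubes and Rbfox1 exons in myoblasts.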

Other observations

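General splicing factors were also compared between the genotype labels. In myoblasts, of 12 tested SR proteins 7 were called higher under the KO label and 0 lower by edgeR, and of 19 hnRNP proteins 8 were higher and 0 lower, where 11.6% of all genes were called in either direction. The median log2 fold changes were 0.13 and 0.10. In differentiated myotubes 0 SR proteins were higher and 1 lower, and 1 hnRNP protein was higher and 5 lower, where 25.2% of all genes were called. In fused myotubes 0 SR proteins were higher and 3 lower, and 0 hnRNP proteins were higher and 1 lower, where 13.0% of all genes were called. Of the 16 known splicing targets, 7 were called lower and 0 higher in KO-labelled myoblasts, with a median of -0.14. In differentiated myotubes 6 of them were higher and 4 lower (median 0.11), and in fused myotubes 0 were higher and 3 lower (median -0.05). The shares of all genes called at the 3 stages were the 11.6%, 25.2% and 13.0% given above. The share of higher calls over all genes in myoblasts was 42.1% and went to 29.3% with DESeq2 size factors and to 18.7% with effective transcript length in the fit. The summed proliferation markers were 810 to 831 CPM in the KO-labelled and 734 to 779 CPM in the WT-labelled myoblasts, the muscle markers are as given in the report, and the part of either in these counts was not tested.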
